A study of Mus musculus with 14 samples.

Results

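The genes described here carry vitamin A from uptake to retinoic acid: Rbp2, Bco1, Lrat, Dhrs3, Aldh1a1, Aldh1a2, Aldh1a3, Aldh1a7 and Aldh1b1. They were chosen by symbol, with earlier results of these data known, and are 9 of the 18820 genes measured. Each had 1 probe set on the array. The samples were whole organoids, which are gland-like cultures, and stem cells sorted from clonal organoids grown from single stem cells, of mixed C57Bl6j/CBA mice of both sexes. By the labels the controls carried a null and a floxed allele of Cdx2, a homeobox gene that marks intestinal identity. The controls themselves thus had a single intact Cdx2 allele. All samples were labelled Lgr5-EGFP, which the paper describes as an Lgr5-EGFP-Ires-CreERT2 knock-in. The paper's results describe the organoids studied by array as grown from wild-type glands and crypts, which differs from their labels. Its methods give control organoids the same genotype as the mice behind the Cdx2null ones. The sorted cells (SCs) were the Lgr5-EGFP-high fraction of the clonal cultures. Cdx2null SI SCs (n = 2) came from small intestinal organoids whose floxed allele had been removed by overnight 4-hydroxytamoxifen. Control Sto SCs (n = 2) and control SI SCs (n = 3) came from stomach and small intestine without tamoxifen. The paper states gastric conditions (Sto medium) for 2 samples of each SC type. The medium of the remaining control SI SC array is not stated. Whole, unsorted control organoids had been grown in Sto medium, the gastric condition with Wnt3a, Fgf10 and gastrin on top of Egf, Noggin and R-spondin, as 1 sample of each origin. In SI medium, without those additions, Sto organoids (n = 2) and SI organoids (n = 3) had been grown. How many animals stood behind the samples is not given in the sources used here, so p-values measure the spread between these samples, part of which may be technical.

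In the gut, dietary carotene is split to retinal by BCO1, and retinal and retinol are carried inside absorptive cells by the binding protein RBP2. LRAT joins retinol to a fatty acid for storage and export, and DHRS3 turns retinal back to retinol. Retinal dehydrogenases of the ALDH1A family make retinoic acid, the ligand of nuclear receptors that steer epithelial differentiation, and mitochondrial ALDH1B1 oxidises several aldehydes.

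Values are log2 signals after RMA-sketch, the array summary used by the authors. A signal remains where a gene is silent, and levels are compared only within a gene. Array medians ran from 4.72 to 5.05. Cdx2 read 8.41 and 4.88 in Cdx2null SI SCs, 5.08 and 4.67 in control Sto SCs, and 9.04, 10.05 and 8.94 in control SI SCs. The first Cdx2null array was thus near control SI SCs and the second near control Sto SCs. By the paper the array also probes a part of Cdx2 that the deletion leaves in place, which holds for both arrays. The cause of the gap between them was not tested. One array went against its label: SI organoids in SI medium 1 read 5.52 for Cdx2, against 9.92 and 9.67 on the other arrays of its group, and its 12 enterocyte markers averaged 5.52, against 10.90 and 11.19. Its 8 gastric gland markers averaged 8.22, against 5.32 and 4.36. Counts of members and list genes past the test that use it are given with and without it, as are the main member differences. On array 3 of the control SI SCs, and on array 3 of the SI organoids in SI medium, the upper quartile was 7.50 and 7.57, against 7.79 to 7.90 elsewhere, and 100% of values were logs of a signal rounded to 1 decimal, so both had been exported differently. By Xist, control SI SCs 1 and 3 and the Sto organoids in Sto medium were male and the other arrays female. Lgr5, the stem cell receptor, read 9.29 to 11.56 except in Sto organoids in SI medium, at 4.20 and 4.32. Of the endothelium, mesenchyme and immune markers, 4 of 4, 7 of 9 and 5 of 7 lay below 5.85 on every array. That value is the median over all genes and arrays.

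**Figure D1:**
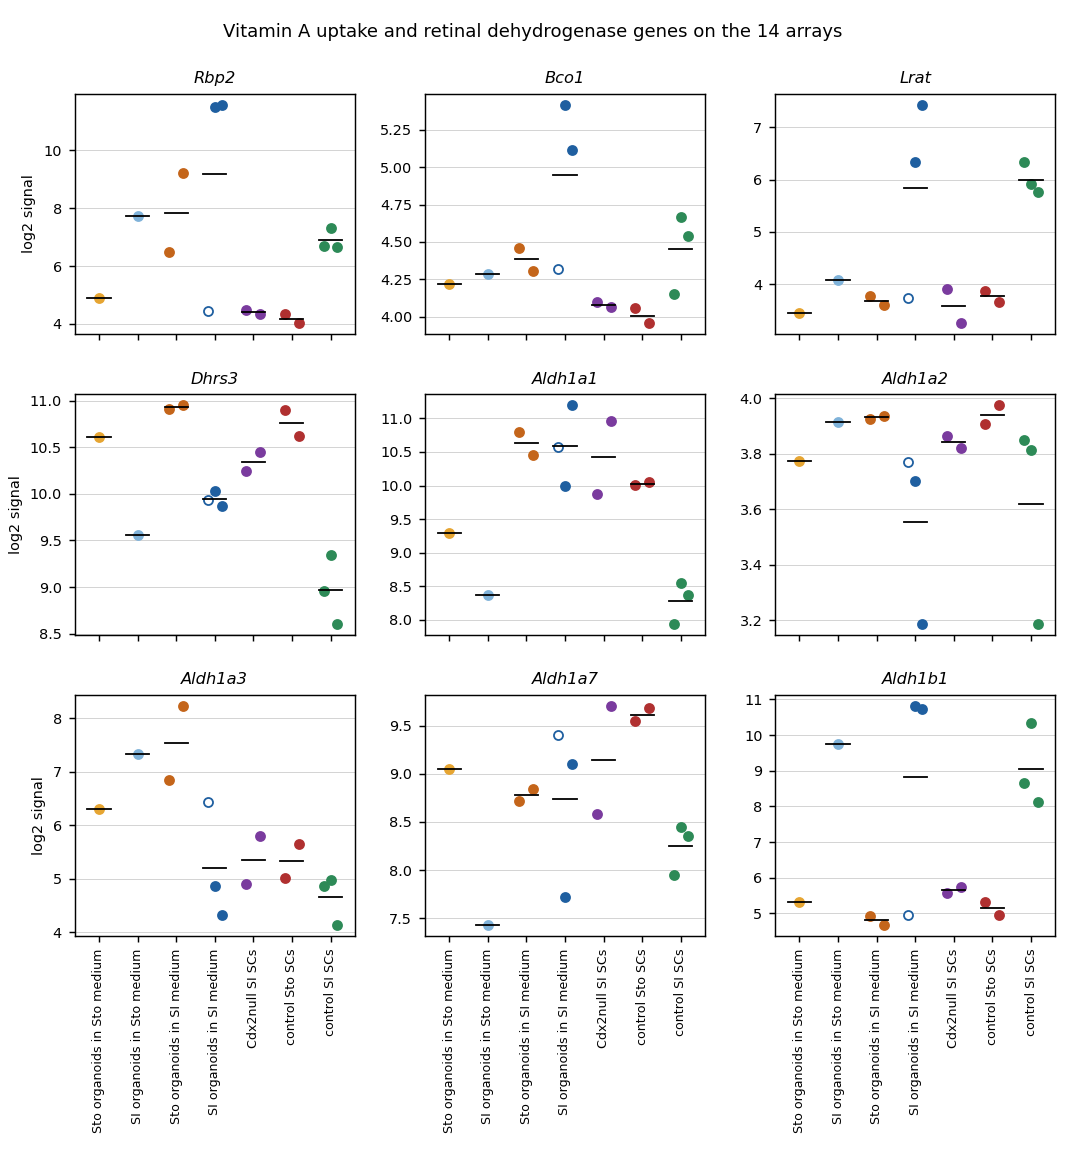
Log2 signal of the 9 genes (vertical axes, each with its own scale) on the 14 arrays, by group (horizontal axis). Points are arrays, black lines group means, and the open point is SI organoids in SI medium 1, which reads low for Rbp2 (4.46), Lrat (3.73) and Aldh1b1 (4.97) beside the other arrays of its group.

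Removal of Cdx2 from small intestinal stem cells went with lower signals of the retinol carrier, the retinol-esterifying enzyme and mitochondrial Aldh1b1, and with higher signals of Dhrs3 and Aldh1a1. Past the test, an adjusted p under 0.05 with a fold of at least 2, were 5 of the 9 genes in Cdx2null against control SI SCs, 2 higher and 3 lower. Of all genes tested, 1.52% passed, 0.93% higher and 0.595% lower. Since the members were chosen with earlier results of these data known, their share cannot be read as an excess over all genes. The members' median log2 difference was 0.23, beside 0.03 over all genes. Tests are limma's, 2-sided, with Benjamini-Hochberg adjustment over all 18820 genes.

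Rbp2 carries retinol and retinal in enterocytes. Its signal was 4.47 and 4.36 in Cdx2null SI SCs, against 6.71, 7.31 and 6.65 in control SI SCs. The ranges did not overlap, and the groups differed by -2.48 on the log2 scale (SE 0.23, 5.57-fold lower, adjusted p = 0.00504). Bco1, which splits carotene, was dim throughout, at 4.10 and 4.06 in Cdx2null SI SCs, against 4.16, 4.67 and 4.54 in control SI SCs. Both Cdx2null arrays lay below the control arrays, but the difference of -0.37 (SE 0.18) did not pass (adjusted p = 0.514).

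The promoter windows of Rbp2 and Bco1 are shown because their longest shared run, TGACCTTTGAC (11 bases), has the form of a direct repeat of the kind bound by nuclear receptors such as HNF4A and RXR heterodimers. RefSeq windows of 300 bases, 250 before to 50 after a gene's start, were found for 8 of the 9 genes (build GRCm38.p6). Rbp2 lies at chr9:98490287-98490586 and Bco1 at chr8:117095615-117095914, both on the plus strand, printed 5′ to 3′ with the repeat in capitals, from position -58 in Rbp2 and -56 in Bco1 relative to the start.
Rbp2: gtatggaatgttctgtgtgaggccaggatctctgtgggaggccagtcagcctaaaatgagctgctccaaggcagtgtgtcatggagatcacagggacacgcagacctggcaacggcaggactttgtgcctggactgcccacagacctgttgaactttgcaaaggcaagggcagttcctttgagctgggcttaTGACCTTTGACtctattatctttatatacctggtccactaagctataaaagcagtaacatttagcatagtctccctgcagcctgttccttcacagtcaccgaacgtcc
Bco1: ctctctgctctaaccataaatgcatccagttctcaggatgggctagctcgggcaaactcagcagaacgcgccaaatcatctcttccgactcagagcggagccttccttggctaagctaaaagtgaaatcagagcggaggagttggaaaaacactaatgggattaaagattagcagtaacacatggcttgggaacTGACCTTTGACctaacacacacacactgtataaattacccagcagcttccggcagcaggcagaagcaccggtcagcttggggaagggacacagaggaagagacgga
The repeat was chosen after these sequences had been seen. Searched on both strands, it occurs in 12 of 32851 such windows of all genes (0.0365%), and in no window of the other members. AGGTCA, a receptor binding unit, is part of the repeat when read on the other strand. Its match in Rbp2 and Bco1 therefore followed from the choice of the repeat. It matched no window of the other members, against 16.3% of all windows. TTTAT, the core letters of Cdx sites, overlaps TATA-like stretches. It matched 5 of the 8 members (Rbp2, Bco1, Dhrs3, Aldh1a1 and Aldh1a7), each in 1 window, of 11 member windows in all. Of all windows 40.0% matched, a share counted per window and not per gene. A match is a run of letters, not a measured site.

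Lrat, the enzyme that esterifies retinol, read 3.90 and 3.25 in Cdx2null SI SCs, against 6.34, 5.91 and 5.75 in control SI SCs. No array of one group came within the range of the other, and the difference was -2.43 (SE 0.25, 5.38-fold lower, adjusted p = 0.00704). The files give no detection calls, and where a gene is dim in one group, as Lrat and Rbp2 were here in Cdx2null SI SCs, the fold may understate the difference. Dhrs3, the retinal reductase, was bright in every sample, at 10.24 and 10.45 in Cdx2null SI SCs, against 8.96, 9.35 and 8.60 in control SI SCs. Both Cdx2null arrays were above all control arrays, and the difference was 1.37 (SE 0.24, 2.59-fold higher, adjusted p = 0.0432).

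Among the enzymes that oxidise retinal, Aldh1a1 read 9.88 and 10.97 in Cdx2null SI SCs, against 7.93, 8.55 and 8.36 in control SI SCs. The 2 groups did not overlap, and the difference was 2.14 (SE 0.33, 4.41-fold higher, adjusted p = 0.029). Its paralog Aldh1a7, known in mouse, read 8.58 and 9.70, against 7.95, 8.45 and 8.35. The second Cdx2null array was far above the first, as it was for Aldh1a1, and the difference of 0.89 (SE 0.33) did not pass (adjusted p = 0.338).

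Both paralogs lie on chromosome 19, and their windows are shown to make the likeness of their promoters visible. For Aldh1a1 the second of 2 listed starts is given, at chr19:20601718-20602017 on the plus strand, and for Aldh1a7 chr19:20727507-20727806 on the minus strand. Capitals mark the longest run that both share, 65 bases from position -94.
Aldh1a1: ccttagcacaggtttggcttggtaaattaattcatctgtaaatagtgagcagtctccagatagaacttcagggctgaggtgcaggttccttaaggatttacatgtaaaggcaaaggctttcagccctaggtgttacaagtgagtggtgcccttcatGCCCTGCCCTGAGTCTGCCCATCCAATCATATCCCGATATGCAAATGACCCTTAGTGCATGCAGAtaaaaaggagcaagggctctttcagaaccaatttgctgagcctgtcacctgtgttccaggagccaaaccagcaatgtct
Aldh1a7: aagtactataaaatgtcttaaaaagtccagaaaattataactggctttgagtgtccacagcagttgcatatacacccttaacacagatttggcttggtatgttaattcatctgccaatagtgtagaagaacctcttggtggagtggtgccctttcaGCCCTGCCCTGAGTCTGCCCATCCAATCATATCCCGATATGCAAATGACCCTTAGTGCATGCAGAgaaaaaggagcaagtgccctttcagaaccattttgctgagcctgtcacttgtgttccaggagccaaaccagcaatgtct
Set side by side without gaps, 94.7% of the last 150 bases were identical, and 59.0% of the whole window. The windows lie mostly before the start, so they do not show whether RNA of one gene is read by the probe set of the other. No transcript or probe sequences were compared. How far the 2 probe sets cross-react is thus not known, and the values of the pair are uncertain in that respect.

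Aldh1a2 was dim on every array, at 3.86 and 3.82 in Cdx2null SI SCs, against 3.85, 3.82 and 3.19 in control SI SCs. Aldh1a3, the other family member that makes retinoic acid, read 4.91 and 5.81 in Cdx2null SI SCs, against 4.87, 4.98 and 4.14 in control SI SCs. Both overlapped between the groups and neither passed (adjusted p = 0.803 and 0.568). Mitochondrial Aldh1b1 read 5.57 and 5.75 in Cdx2null SI SCs, against 8.66, 10.33 and 8.11 in control SI SCs. The lowest control array was far above both Cdx2null arrays, and the difference was -3.38 (SE 0.59, 10.4-fold lower, adjusted p = 0.0455).

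Rbp2 and Lrat passed whichever of the 5 arrays was left out, with adjusted p between 0.00475 and 0.0395. Dhrs3, Aldh1a1 and Aldh1b1 each passed in 1 of 5 such fits, with adjusted p up to 0.271, 0.11 and 0.215. Without the first Cdx2null array, the one with high Cdx2, the differences were -2.53 for Rbp2, -2.75 for Lrat and 2.68 for Aldh1a1, all past the test. Without it Dhrs3 differed by 1.48 (adjusted p = 0.108) and Aldh1b1 by -3.28 (adjusted p = 0.152). With sex as a term, Rbp2 and Aldh1b1 passed and Lrat (adjusted p = 0.0538), Dhrs3 (0.217) and Aldh1a1 (0.199) did not. With replicate number as a block Rbp2 (adjusted p = 0.0297), Lrat (0.0133) and Aldh1a1 (0.0493) passed, while Dhrs3 (1.19, adjusted p = 0.0799) and Aldh1b1 (-3.84, adjusted p = 0.0565) did not. Against the single female control array the Cdx2null arrays lay on the same side for all 5 genes. Enterocyte markers moved with these genes: 6 of 12 passed as lower, with a mean level of 5.27 to 5.63 in Cdx2null SI SCs and 7.41 to 8.13 in control SI SCs. Of 8 gastric gland markers 4 passed as higher, with a mean level of 8.06 to 8.29, against 5.66 to 5.78. The part of these markers in the result was not tested. In such bulk samples, fewer cells of a type and less RNA per cell cannot be told apart.

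**Figure D2:**
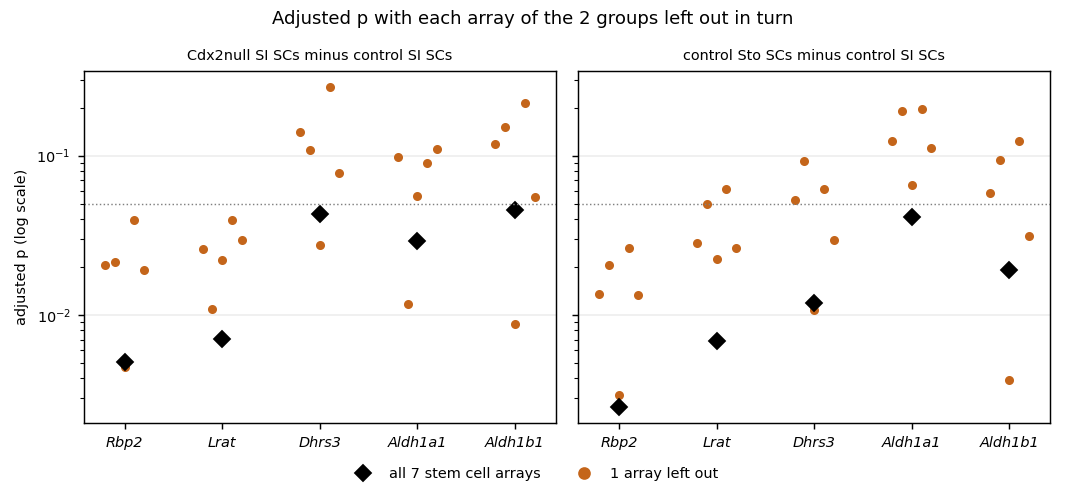
Adjusted p (vertical axis, log scale) of the 5 genes that passed, for Cdx2null (left) and control Sto (right) against control SI SCs. Diamonds are all 7 SC arrays, points are fits with 1 array of the 2 groups left out, and the dotted line is 0.05: the points of Rbp2 lie below it in both panels, while Dhrs3, Aldh1a1 and Aldh1b1 have points above it.

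Control Sto SCs, set against the same control SI SCs, give the difference between the organs, and since the controls are shared the values stand beside those above without a count of overlap. Here too 5 of 9 passed, 2 higher and 3 lower, against 2.86% of all genes (1.94% higher and 0.914% lower). Again the choice of members, made with earlier results known, bars reading this as an excess. The members' median difference was 0.32, beside 0.03 over all genes. Rbp2 read 4.34 and 4.02 in control Sto SCs, against 6.71, 7.31 and 6.65 in control SI SCs. It was lower on both Sto arrays, by -2.71 (SE 0.23, adjusted p = 0.00264). Lrat, at 3.87 and 3.66, against 6.34, 5.91 and 5.75, differed by -2.24 (SE 0.25, adjusted p = 0.00689), again with no overlap.

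Dhrs3 read 10.90 and 10.62 in control Sto SCs, against 8.96, 9.35 and 8.60 in control SI SCs, a difference of 1.79 (SE 0.24, adjusted p = 0.0119). For Aldh1a1 the values were 10.004 and 10.052, against 7.93, 8.55 and 8.36, a difference of 1.75 (SE 0.33, adjusted p = 0.0413). All Sto arrays were above all SI arrays for both genes. Aldh1b1 stood at 5.33 and 4.96 in control Sto SCs, against 8.66, 10.33 and 8.11 in control SI SCs, 14.8-fold lower (-3.89, SE 0.59, adjusted p = 0.019). Aldh1a7 read 9.55 and 9.68 in control Sto SCs, against 7.95, 8.45 and 8.35, and its difference of 1.36 (SE 0.33) did not pass (adjusted p = 0.0857), although the groups did not overlap. It passed with each array centred on its median (adjusted p = 0.028) and with dim genes left out (adjusted p = 0.0492). Bco1 (-0.45), Aldh1a2 (0.32) and Aldh1a3 (0.67) did not pass.

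With single arrays left out, Rbp2 passed in 5 of 5 fits and Lrat in 4 of 5, the exception being the fit without control Sto SCs 2 (adjusted p = 0.0615). Aldh1a1 passed in 0 of 5, with adjusted p of 0.0653 to 0.198, and Dhrs3 and Aldh1b1 in 2 of 5 each, with adjusted p up to 0.0925 and 0.123. With sex as a term Rbp2 and Aldh1b1 passed. The enterocyte markers averaged 5.24 to 5.26 in control Sto SCs and 7.41 to 8.13 in control SI SCs, 6 of 12 lower. The gastric gland markers averaged 8.76 to 8.82 in control Sto SCs and 5.66 to 5.78 in control SI SCs, 6 of 8 higher. The part of both marker lists in the result was not tested.

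Cdx2null SI SCs and control Sto SCs were also compared directly, to show what differed between the altered intestinal cells and gastric ones. No gene passed of the 18820, and 286 had an unadjusted p under 0.05, none of them a member. The methods' t-test, unadjusted, gave 15 genes at 2-fold and 0 members. The differences ran from -0.47 for Aldh1a7 to 0.51 for Aldh1b1. The 95% intervals were -0.37 to 0.83 for Rbp2, -0.85 to 0.47 for Lrat, -1.03 to 0.19 for Dhrs3 and -0.46 to 1.25 for Aldh1a1. For Aldh1b1 the interval was -1.004 to 2.03, the widest of the 9, so that with 2 arrays a group the absence of a call does not show equal levels.

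**Figure D3:**
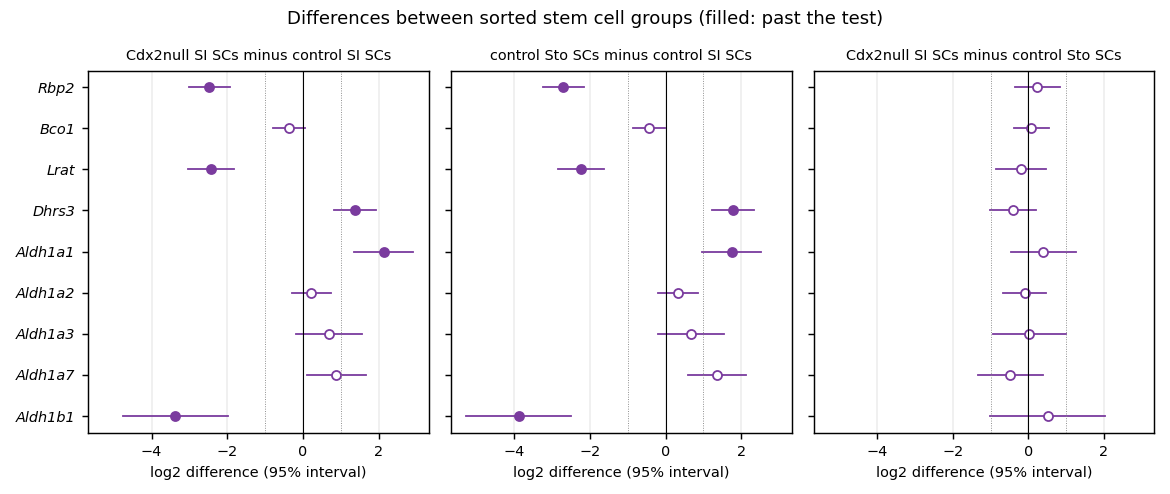
Log2 difference of each gene (points) with its 95% interval (lines) in the 3 comparisons of sorted stem cells, filled where past the test. Dotted lines mark a 2-fold difference: Rbp2, Lrat and Aldh1b1 lie left of zero and Dhrs3 and Aldh1a1 right of it in the first 2 panels, and all intervals of the third cross zero.

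In whole organoids the origin was compared with medium as a further term, Sto organoids (n = 3) against SI organoids (n = 4). With all arrays no gene of the 18820 passed; 2595 had an unadjusted p under 0.05, 2 of them members. Without SI organoids in SI medium 1, 2 of the 9 passed, against 1.97% of all genes. Aldh1b1 read 4.94, 4.67 and, in Sto medium, 5.33 in Sto organoids, against 4.97, 10.81, 10.73 and, in Sto medium, 9.75 in SI organoids. The value of 4.97 is the array that goes against its label. Aldh1b1 differed by -4.15 (SE 1.495, adjusted p = 0.323) with that array and by -5.45 (SE 0.34, adjusted p = 0.00313) without it. Dhrs3 read 10.91, 10.95 and 10.61 in Sto organoids, against 9.94, 10.03, 9.87 and 9.56 in SI organoids. The groups did not overlap, and the difference was 1.00 with and without the array, with an adjusted p of 0.189 and 0.029. A difference of 1.00 lies at the 2-fold limit of the test.

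Rbp2 was at 6.47, 9.21 and 4.90 in Sto organoids, against 4.46, 11.51, 11.59 and 7.72 in SI organoids. Rbp2 in Sto organoids was thus above control Sto SCs on each array, and the 2 Sto arrays in SI medium differed from each other by more than 2 on the log2 scale. The origin difference was -1.78 (SE 1.94, adjusted p = 0.73) with all arrays and -3.41 (SE 0.71, adjusted p = 0.0902) without the array in doubt. Lrat read 3.77, 3.60 and 3.45, against 3.73, 6.34, 7.44 and 4.08. It differed by -1.71 (SE 0.90, adjusted p = 0.451) with all arrays and by -2.35 (SE 0.60, adjusted p = 0.128) without that array. The remaining members had adjusted p of 0.209 and above without it. Beside these values the enterocyte markers averaged 5.45 to 6.16 in Sto organoids and, apart from the array in doubt, 7.75 to 11.19 in SI organoids, and their part in the result was not tested.

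The medium was compared with origin as a further term, Sto medium (n = 2) against SI medium (n = 5), the Sto medium arm holding 1 array of each origin. No gene passed with all arrays (1816 at an unadjusted p under 0.05), and 5 genes but 0 members passed without SI organoids in SI medium 1 (0.0266%). Aldh1a1 read 9.29 and 8.36 in Sto medium, against 10.80, 10.46, 10.574, 9.998 and 11.193 in SI medium. Both Sto medium arrays were below all SI medium arrays. The difference was -1.81 (SE 0.37, adjusted p = 0.387), or -1.79 (SE 0.40, adjusted p = 0.15) without the array in doubt. Rbp2 differed by -2.16 (SE 2.13, adjusted p = 0.84), or by -3.38 (SE 0.75, adjusted p = 0.15) without the array in doubt. Aldh1a3 read 6.30 in Sto organoids in Sto medium, against 6.85 and 8.22 in SI medium. In SI organoids it read 7.33 in Sto medium, against 6.43, 4.87 and 4.33 in SI medium. The Sto medium array was thus the lowest in Sto organoids and the highest in SI organoids. With 1 array in each Sto medium arm, these values within an origin were not tested. By Xist the Sto medium array of the Sto organoids was male and their SI medium arrays female, so there medium and sex cannot be told apart. The enterocyte markers averaged 7.75 in SI organoids in Sto medium, against 10.90 and 11.19 in SI medium (5.52 on the array in doubt). In Sto organoids they averaged 5.45 in Sto medium, against 5.45 and 6.16 in SI medium. The gastric gland markers averaged 7.78 in Sto organoids in Sto medium, against 10.80 and 11.06 in SI medium. Lgr5 read 9.29 in the former, against 4.20 and 4.32. In SI organoids the gastric gland markers averaged 5.59 in Sto medium, against 5.32 and 4.36 in SI medium (8.22 on the array in doubt). The paper uses SI medium as its stomach differentiation medium. The part of these markers in the values of the medium comparison was not tested.

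**Figure D4:**
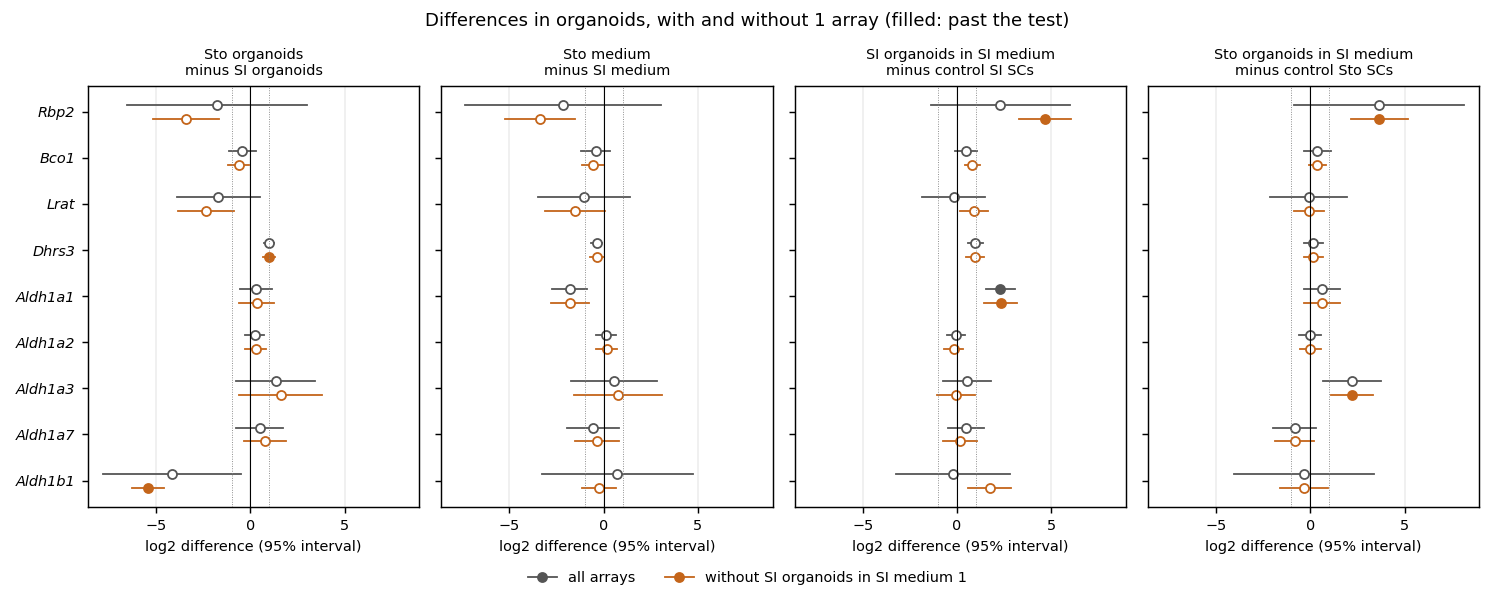
Log2 differences (points) with 95% intervals (lines) in 4 comparisons that involve organoids, with all arrays (grey) and without SI organoids in SI medium 1 (orange), filled where past the test. Intervals of Rbp2, Lrat and Aldh1b1 narrow without that array, and Dhrs3 and Aldh1b1 in the first panel and Rbp2 and Aldh1a1 in the third and Rbp2 and Aldh1a3 in the last then pass.

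Unsorted organoids were set against sorted stem cells to see how the genes differ between a mixed epithelium and its stem cells. In SI organoids in SI medium against control SI SCs, 1 member passed with all arrays, against 0.159% of all genes. That gene was Aldh1a1, at 10.574, 9.998 and 11.193 in organoids, against 7.93, 8.55 and 8.36 in SCs. It was higher on each organoid array, by 2.31 (SE 0.35, 4.95-fold, adjusted p = 0.048), a call that was lost when any of the other 5 arrays of these groups was left out. Without SI organoids in SI medium 1, 2 members passed, against 5.11% of all genes: Aldh1a1 (2.31, adjusted p = 0.00681) and Rbp2 (4.66, SE 0.61, adjusted p = 0.00172). With that array Rbp2 differed by 2.30 (SE 1.64, adjusted p = 0.781). Bco1 reached an adjusted p of 0.0267 and Dhrs3 of 0.0241 without the array, both under 2-fold. Here the media differ as well, since gastric conditions had been used for the SCs, so sorting and medium cannot be told apart. The enterocyte markers averaged 10.90 and 11.19 on the organoid arrays other than the one in doubt and 7.41 to 8.13 in SCs.

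Sto organoids in SI medium against control Sto SCs gave 0 members with all arrays, against 6.03% of all genes, and 2 without SI organoids in SI medium 1, which then leaves the common spread (9.23% of all genes). Rbp2 read 6.47 and 9.21 in organoids, against 4.34 and 4.02 in SCs. Both organoid arrays were higher, by 3.66 (adjusted p = 0.376 with all arrays and 0.00714 without). Aldh1a3 read 6.85 and 8.22, against 5.02 and 5.65, higher on both arrays by 2.20 (adjusted p = 0.0977 with all arrays and 0.0185 without). The gastric gland markers averaged 10.80 and 11.06 in these organoids, against 8.76 and 8.82 in SCs, and Lgr5 read 4.20 and 4.32, against 10.77 and 11.14. The media differ in this comparison too, so sorting and medium cannot be told apart.

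Organoids in Sto medium were also set against control SCs, where the medium was the same as far as it is stated. Of the 9 members 0 passed, among 8 genes in all (0.0425%), nor did any without SI organoids in SI medium 1 (0.494%). Aldh1a3 was the member with an unadjusted p under 0.05: it read 6.30 and 7.33 in organoids, against 5.02, 5.65, 4.87, 4.98 and 4.14 in SCs. Both organoid arrays were above all SC arrays, by 1.81 (SE 0.58, adjusted p = 0.341, or SE 0.41 and adjusted p = 0.0967 without the array in doubt). The origin effect in SCs was tested against that in organoids in SI medium, and 0 members passed with all arrays (0.845% of all genes) and 0 without the array in doubt (4.54%). The estimates for Aldh1a1 were 1.70 (SE 0.55, adjusted p = 0.263) and 1.71 (adjusted p = 0.156), and Aldh1a3 gave -1.65 (SE 0.89, adjusted p = 0.615) and -2.26 (adjusted p = 0.101).

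Other genes of the pathway were counted in 6 lists by role, which held 62 measured genes. The lists too were chosen with earlier results of these data known. In Cdx2null against control SI SCs 3 of the 62 passed, against 1.52% of all genes. Of 8 measured genes of uptake and transport 1 passed as higher and 1 as lower. Isx, an intestinal homeobox factor that represses Bco1 in mice, was at 4.02 and 3.86 in Cdx2null SI SCs, against 8.03, 9.33 and 7.33 in control SI SCs. It was lower on both Cdx2null arrays, by -4.29 (SE 0.51, adjusted p = 0.0116). Stra6, the retinol importer for blood-borne retinol, was at 10.54 and 9.95, against 7.05, 7.37 and 6.53, higher by 3.26 (SE 0.46, adjusted p = 0.0197). No gene passed among 8 of ester storage and release, 19 of retinol and retinal interconversion, 7 of retinoic acid binding and breakdown and 6 retinoid receptors. Of 14 other aldehyde dehydrogenases, Aldh3a1, an enzyme of stomach and cornea, passed as higher (2.07, adjusted p = 0.021), at 6.37 and 7.14 in Cdx2null SI SCs, against 4.76, 4.76 and 4.52.

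In control Sto against control SI SCs, 5 of the 62 list genes passed, against 2.86% of all genes. Isx was at 3.61 and 3.77 in control Sto SCs, against 8.03, 9.33 and 7.33 in control SI SCs (-4.54, adjusted p = 0.0067). Stra6 was at 8.95 and 10.43, against 7.05, 7.37 and 6.53 (2.71, adjusted p = 0.0291). Aldh3a1 was higher by 3.21 (adjusted p = 0.00358). The receptor Rarg was higher by 1.16 (adjusted p = 0.0361), and Aldh6a1, a mitochondrial enzyme of valine breakdown, by 1.06 (adjusted p = 0.0222).

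In Sto organoids in SI medium against control Sto SCs, 5 of the 62 list genes passed with all arrays, against 6.03% of all genes. Sorting and medium cannot be told apart here, nor in the SI organoids set against SI SCs below. Adh7, the class IV alcohol dehydrogenase of stomach that oxidises retinol, was at 10.59 and 10.95 in organoids, against 6.97 and 6.84 in SCs (3.87, adjusted p = 0.00365). Bco2, which splits carotenoids off centre, was higher by 2.92 (adjusted p = 0.0191), Aldh3a2 by 1.83 (adjusted p = 0.00658) and Aldh3b2 by 4.61 (adjusted p = 0.000205). The plasma retinol carrier Rbp4 was lower (-3.26, adjusted p = 0.0381). Without SI organoids in SI medium 1, 16 of the 62 passed, 12 higher and 4 lower, against 9.23% of all genes. Among those that then also passed were Aldh3a1, higher (3.47, adjusted p = 0.000462), and Stra6, lower (-4.23, adjusted p = 0.000687). In SI organoids in SI medium against control SI SCs, 1 of the 62 passed with all arrays, against 0.159% of all genes. It was Cyp26b1, which breaks down retinoic acid (-1.79, SE 0.25, adjusted p = 0.0378), at 4.66, 5.28 and 4.45 in organoids, against 6.66, 6.92 and 6.18 in SCs. Without SI organoids in SI medium 1, 15 of the 62 passed there, against 5.11% of all genes, 6 of them as higher among the 19 interconversion genes. These included the retinol dehydrogenases Adh4 (5.82, adjusted p = 8.21e-07) and Rdh7 (6.52, adjusted p = 2.98e-05). Adh4 read 9.07 and 9.67 in those 2 organoid arrays and 2.95 to 3.69 on the other 12 arrays. In Sto against SI organoids no list gene passed with all arrays, and without that array 7 of the 62 did, against 1.97% of all genes. Lower were Isx (-5.31, adjusted p = 0.000823), Ttr (-3.15, adjusted p = 0.0351), Rarb (-2.99, adjusted p = 0.00852), Adh1 (-2.84, adjusted p = 0.00405) and Stra6l (-2.22, adjusted p = 0.0267). Higher were Aldh3a1 (5.92, adjusted p = 0.0124) and Adh7 (3.43, adjusted p = 0.0162). The origin effect in SCs against that in organoids in SI medium passed for 1 of the 62 with all arrays, Aldh3b2 (-4.77, adjusted p = 0.00242), against 0.845% of all genes. Without SI organoids in SI medium 1 it passed for 9 of the 62, 5 higher and 4 lower, against 4.54% of all genes.

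**Figure D5:**
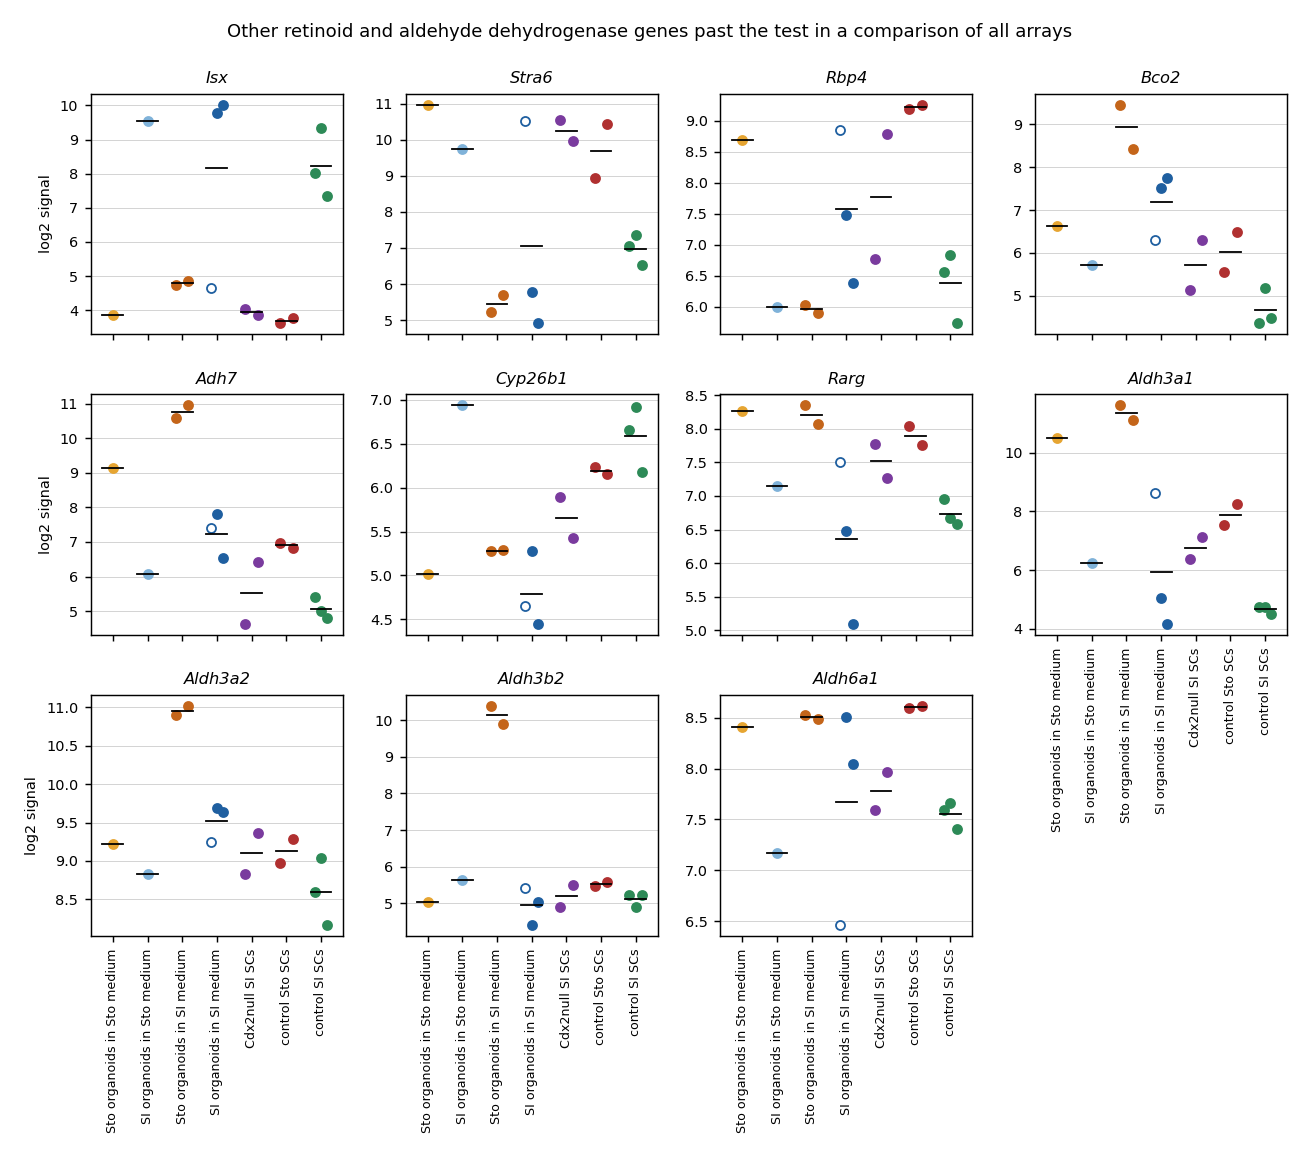
Log2 signal (vertical axes, each with its own scale) of the 11 list genes other than members that passed in a comparison with all arrays, by group (horizontal axis). Points are arrays, black lines group means and the open point is SI organoids in SI medium 1; Isx is above 7 in control SI SCs and below 5 in Cdx2null and control Sto SCs.

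Among themselves the genes differed in how far they varied. Over the 14 arrays the range was 7.57 for Rbp2, 6.13 for Aldh1b1, 4.19 for Lrat, 4.08 for Aldh1a3, 3.26 for Aldh1a1, 2.35 for Dhrs3, 2.27 for Aldh1a7, 1.46 for Bco1 and 0.79 for Aldh1a2. A range of at least 2 was found for 7 of 9, against 17.81% of all genes, the members having been picked with such results known. Aldh1a2 was lowest, at 3.19, on exactly the 2 arrays that had been exported differently, and read 3.70 to 3.97 elsewhere. After the mean of each gene was taken out, Bco1 and Aldh1a2 differed least, by 0.47 an array on average, then Dhrs3 and Aldh1a2 by 0.53. Dhrs3 differed from Aldh1a1 by 0.58 and from Aldh1a7 by 0.58. Rbp2 and Aldh1b1 differed by 1.35 and Lrat and Aldh1b1 by 1.13. The measure is not scaled by range. Genes that vary little therefore come out close whatever their pattern, and a small value does not show that genes move together. By the same measure the genes most like Rbp2 over the 14 arrays were Cyp2c66 (0.41), Cyp2c55 (0.56) and Fabp2 (0.58). Nearest to Aldh1b1 were Myrfl (0.33), Cldn15 (0.37) and Ush1c (0.39), and nearest to Lrat were Dach1 (0.28), Ky (0.31) and Papln (0.31). For Aldh1a1 they were Crot (0.49), Abca1 (0.49) and Slc25a45 (0.50), and for Aldh1a3 Inhba (0.37), Tmem63c (0.39) and Dse (0.40). Dhrs3 was closest to Os9 (0.21), Ccpg1 (0.22) and Clmn (0.23), and Aldh1a7 to Azin2 (0.28), Gpr142 (0.29) and Dnajc3 (0.31). These are descriptions over arrays that share groups and media.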

How the data were processed

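Expression was measured in 14 samples of 7 groups, 1 Affymetrix Mouse Gene ST 1.1 array each. The authors summarised the probes by RMA-sketch in Affymetrix Power Tools (version not given in the sources used here) and deposited log2 values for 35556 probe sets, of which 21218 had 1 gene symbol, 1881 several and 12457 none. Per gene the probe set with the highest mean was kept, which gave 18820 genes, and the deposited log2 values were not normalised again. The number of arrays limits the precision.

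Groups were compared with limma 3.58.1 in R 4.3.3 (lmFit and eBayes), with Benjamini-Hochberg adjustment over all genes, an adjusted p under 0.05 and a fold of at least 2. The SCs were fitted on 7 arrays, origin and medium on 7 organoid arrays, and organoids against SCs on all 14, where groups share 1 estimate of spread. The script was tested on simulated data. Alternatives were quantile normalisation, median centring, leaving out dim genes, the mean of all probe sets, the methods' t-test, a replicate block, a sex term, a fit on all 14 arrays and leaving out each array. The sex term was not fitted to the comparisons of origin and medium in organoids. The differences of medium within origin (values with no test), the setting without the arrays of another export and quantile normalisation without SI organoids in SI medium 1 were added after the data had been seen.

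Named were the 9 members, the label checks Cdx2, Lgr5 and Xist, list genes past the test (up to 4 a direction, by smallest adjusted p), and the 3 genes most like each member with a range of at least 2, by the mean absolute difference per array of centred values. Lists were uptake and transport, ester storage and release, interconversion, retinoic acid binding and breakdown, receptors, other aldehyde dehydrogenases, and markers of enterocytes, gastric glands, mesenchyme, immune cells and endothelium. Members and lists were chosen with earlier results of these data known. Pnpla4, Akr1b3, Akr1b7 and Aldh7a1 were not analysed here.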

Additional observations from a re-analysis of the deposited data

Results flagged for a closer look

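Aldh1a3, a retinal dehydrogenase, differed between the media in opposite directions in organoids of stomach and small intestine. By Xist the Sto medium array of the Sto organoids was male and their SI medium arrays female. In Sto organoids medium and sex thus cannot be told apart. Sto minus SI medium was -1.24 on the log2 scale in Sto organoids and 2.12 in SI organoids, which differ by -3.35. Without SI organoids in SI medium 1, the effect in SI organoids was 2.73 and the difference -3.96. The Sto medium array read 6.30 in Sto organoids, against 6.85 and 8.22 in SI medium, and 7.33 in SI organoids, against 6.43, 4.87 and 4.33 in SI medium. Aldh1a7 and the dim Aldh1a2 also lay on opposite sides on every array, with effects that differ by 1.58 and -0.52. For Aldh1a7 the effects were 0.27 in Sto organoids and -1.31 in SI organoids, and for Aldh1a2 they were -0.16 in Sto organoids and 0.36 in SI organoids. Without SI organoids in SI medium 1, the effects in SI organoids were -0.98 for Aldh1a7 and 0.47 for Aldh1a2. The differences were then 1.25 and -0.63. Aldh1a2 is lowest in SI organoids on the array that had been exported differently. The difference was not tested for any of the 3 genes, since each Sto medium arm was 1 array and the contrast was chosen after the values had been seen. The enterocyte markers averaged 7.75 in SI organoids in Sto medium, against 10.90 and 11.19 in SI medium (5.52 on the array that goes against its label), and their part was not tested. In Sto organoids they averaged 5.45 in Sto medium, against 5.45 and 6.16 in SI medium.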

How the results depend on the processing

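The calls in SCs rest on 2 or 3 arrays a group. In Cdx2null against control SI SCs, 5 members passed as designed, 3 with a replicate block (Rbp2, Lrat and Aldh1a1), 2 with a sex term, 0 with the methods' t-test after Benjamini-Hochberg, 0 in the fit on all 14 arrays, and 2 to 4 with 1 array left out. In control Sto against control SI SCs, 5 passed as designed, 2 with a sex term, 0 with that t-test, 1 (Dhrs3) on all 14 arrays, and 1 to 4 with 1 array left out. In SI organoids in SI medium against control SI SCs, 1 passed as designed, and 0 with quantile normalisation, that t-test, the block, the sex term or without the arrays of another export, with 0 to 2 when 1 array was left out. Sto against SI organoids gave 0 as designed, 1 (Aldh1b1) with quantile normalisation and the first SI organoid array in SI medium out, and 0 to 2 with 1 array left out. Lrat was among the dim genes and was not tested where those were left out. Deviations of same-numbered SC arrays correlated in all 6 pairs (0.10 to 0.50), which is a hint from the data, since no label says what a number marks and each comparison holds only 2 pairs. The 15 pairs with an organoid array gave -0.24 to 0.10.

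Over all genes, Cdx2null against control SI SCs gave 287 calls as designed, 458 with median centring, 498 with the unadjusted t-test and 4 on all 14 arrays. The share that was higher was 175 of 287, but 174 of 332 with quantile normalisation and 69 of 207 with a sex term. Control Sto against control SI SCs gave 538, against 828 with the unadjusted t-test, 262 with a sex term (110 higher, against 366 of 538) and 29 on all 14 arrays. SI organoids in SI medium against control SI SCs gave 30, against 66 with quantile normalisation, 51 with the block, 220 with the unadjusted t-test and 2 with a sex term.

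Signs turned only for differences that did not pass. In Cdx2null against control Sto SCs these were Aldh1a3 (-0.065 with quantile normalisation, -0.079 with median centring) and Bco1 (-0.028 with median centring). In Sto against SI medium they were Rbp2 (0.85), Lrat (0.014) and Aldh1a2 (-0.0052) with the replicate block, and Aldh1b1 (-0.23 with quantile normalisation and the array out). Aldh1a2 in organoids in Sto medium against SCs was -0.042 with the block and -0.043 without the arrays of another export. The comparison of origin effects gave 0.052 for Lrat and 0.066 for Aldh1a2 with quantile normalisation, -0.096 for Bco1, 0.0043 for Lrat and -1.15 for Aldh1b1 with a sex term, and -1.27 for Aldh1b1 without the arrays of another export. With 1 array left out, signs also turned for members that did not pass. In Cdx2null SI against control Sto SCs the differences ran from -0.42 to 0.47 for Aldh1a3, -1.03 to 0.086 for Aldh1a7, -0.52 to 0.14 for Lrat and -0.15 to 0.94 for Aldh1a1. In Sto against SI medium the differences ran from -0.16 to 0.36 for Aldh1a2, -1.24 to 2.12 for Aldh1a3, -1.31 to 0.27 for Aldh1a7 and -0.25 to 1.21 for Aldh1b1. In organoids in Sto medium against SCs the differences ran from -0.054 to 0.074 for Bco1 and -0.043 to 0.12 for Aldh1a2. In SI organoids against SI SCs the differences ran from -0.97 to 0.89 for Lrat, -0.28 to 0.12 for Aldh1a2, -1.19 to 1.73 for Aldh1b1 and -0.063 to 0.99 for Aldh1a3. In Sto organoids against Sto SCs the differences ran from -0.19 to 0.022 for Lrat and -0.043 to 0.026 for Aldh1a2. For the origin effects the differences ran from -0.88 to 0.97 for Lrat, -2.73 to 1.00 for Rbp2, -0.12 to 0.43 for Bco1, -0.27 to 0.13 for Aldh1a2 and -0.84 to 2.07 for Aldh1b1. The cause was not tested.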
